A study of Mus musculus with 12 samples.

Results

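The genes described here are 4 of the 20775 listed by symbol in each deposited table: Scn4a, Scn4b, Atp1b1 and Fxyd1. They were taken by name from the families of voltage-gated sodium channel, Na/K ATPase and phospholemman genes. No rule on their values was applied, but the choice was made with earlier results of these data known. Counts of calls among them are therefore not those of an unselected set. Scn4a was also taken up by the study itself after its own RNA-seq, so the direction of its RNA here is not independent evidence. By western blot the study reported less SCN4A protein in adult knockout cardiomyocytes.

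RNA-seq was performed at 2 stages in mice of strain C57BL/6. At E10.5, the hearts came from embryos with floxed Med30 alleles (Med30 f/f) and Tnnt-Cre, which formed the cKO group (n = 3), and from Cre-negative littermates, the Ctrl group (n = 3). At 3 months of age and 4 weeks after tamoxifen (TAM), cardiomyocytes of Med30 f/f mice with αMHC-MerCreMer (icKO, n = 3) were compared with those of tamoxifen-injected Med30 f/f mice without it (Ctrl, n = 3). Med30 encodes a subunit of Mediator, the complex that links transcription factors to RNA polymerase II, and both Cre drivers act in cardiomyocytes. The labels name the controls wild type and give the source of every sample as heart, while the extraction note gives isolated cardiomyocytes for the adult samples. Since Ctrl carried no Cre, an effect of Cre, or of MerCreMer with tamoxifen, cannot be told apart from the loss of Med30 in these samples. The paper reports neither deaths nor impaired cardiac function in tamoxifen-treated αMHC-MerCreMer mice lacking the floxed allele. RNA of such mice is not among the samples. Whether a sample held 1 animal or several is not given in the sources used here, so p values measure the spread between these samples.

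As background, voltage-gated sodium channels carry the inward current that starts the action potential of a cardiomyocyte, and the Na/K ATPase pumps the sodium out again. A channel consists of a pore-forming alpha subunit with beta subunits that tune its gating and its place in the membrane. The pump consists of a catalytic alpha subunit, a beta subunit that the complex needs to reach the membrane, and a small FXYD protein that regulates it. In the heart the main FXYD protein is phospholemman.

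Scn4a encodes the alpha subunit best known from skeletal muscle. It lies at chr11:106318592-106353288 on the minus strand (GRCm38) in 24 exons. Scn4b encodes a beta subunit that is linked to the alpha subunit by a disulfide bond, and lies at chr9:45138395-45154152 on the plus strand in 5 exons. Atp1b1 encodes the main beta subunit of the cardiac pump, and lies at chr1:164437109-164458355 on the minus strand in 6 exons. Over 617 bases it overlaps Nme7 on the other strand, and whether reads were counted by strand is not given in the sources used here. Fxyd1 encodes phospholemman and lies at chr7:31051678-31057199 on the minus strand, with 4 annotated transcripts of 492 to 620 bases. No gene in the annotation overlapped Scn4a, Scn4b or Fxyd1.

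The promoter windows of Scn4a, Scn4b and Atp1b1 are printed because the transcripts of the first pair fell and that of Atp1b1 rose as deposited at 4 weeks. All 4 genes were matched to RefSeq windows of 300 bases on GRCm38.p6, written 5′ to 3′ on the strand of the gene. The Scn4a window is chr11:106349341-106349640 (minus strand). The other windows are chr9:45138374-45138673 (plus strand) for Scn4b and chr1:164458306-164458605 (minus strand) for Atp1b1. The RefSeq start lies 3898 bases inside the gene as annotated above for Scn4a, 229 bases inside for Scn4b and 2346 bases inside for Fxyd1, and at the annotated start for Atp1b1. Capitals mark the matches to the motifs named below them.
Scn4a: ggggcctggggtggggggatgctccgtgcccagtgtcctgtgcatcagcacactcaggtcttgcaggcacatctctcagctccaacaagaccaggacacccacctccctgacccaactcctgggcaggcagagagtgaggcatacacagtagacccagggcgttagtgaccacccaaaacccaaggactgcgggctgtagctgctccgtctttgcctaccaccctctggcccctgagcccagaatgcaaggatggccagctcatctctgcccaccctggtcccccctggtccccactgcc
Scn4b: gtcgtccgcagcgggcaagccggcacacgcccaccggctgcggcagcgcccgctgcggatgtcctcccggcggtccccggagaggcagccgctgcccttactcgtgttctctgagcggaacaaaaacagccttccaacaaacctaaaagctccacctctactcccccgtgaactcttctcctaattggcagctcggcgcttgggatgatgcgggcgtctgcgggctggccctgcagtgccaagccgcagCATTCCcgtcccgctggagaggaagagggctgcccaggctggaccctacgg
Atp1b1: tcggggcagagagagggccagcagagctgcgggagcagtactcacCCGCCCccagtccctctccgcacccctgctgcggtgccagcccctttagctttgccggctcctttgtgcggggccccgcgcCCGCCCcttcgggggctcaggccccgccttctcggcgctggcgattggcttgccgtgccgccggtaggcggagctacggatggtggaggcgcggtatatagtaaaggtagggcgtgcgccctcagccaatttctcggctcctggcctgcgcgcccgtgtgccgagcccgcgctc

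Motifs were searched on both strands over the 32851 mouse windows of this length, and the Scn4a window held none of those searched. In Scn4b the capitals are 1 TEAD core (GGAATG), read on the opposite strand from base -1 to base 5 around the start, a motif held by 14.7% of windows. Atp1b1 carried 2 GC boxes (GGGCGG), also on the opposite strand, and 35.7% of windows held at least 1. The Fxyd1 window, chr7:31054804-31055103 on the minus strand, held 1 TATA box (TATAAA), again on the opposite strand, from base 2 to base 7 after the start, where 13.6% of windows held one. No window of the 4 genes held an E box (CANNTG), which occurred in 72.3% of windows. The GATA core (AGATAA) was likewise missing from all 4 and occurred in 11.2%. The MEF2 and CArG motifs, searched as patterns with variable letters, occurred in 3.19% and 1.63% and in none of the 4. No 2 of the matches in these windows overlapped. The windows differed more in CpG content. Those of Scn4b and Atp1b1 had 26 and 31 CpG, whereas those of Scn4a and Fxyd1 had 4 and 6, against a median of 7. These are matches of letters in a window, and no binding was measured.

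Expression was given as RPKM, which scales reads by gene length and by sequencing depth, so that levels can be compared between genes. Estimated from the spacing of the lowest values, 11.96 M reads stood behind the shallowest sample and 20 M behind the deepest. The limma model was run separately for E10.5 and 4 weeks on log2(RPKM + 0.1), over 10885 genes at E10.5 and 9517 genes at 4 weeks with a mean RPKM above 1. A gene was called when its Benjamini-Hochberg adjusted p was below 0.05 with more than 1 unit of change on the log2 scale in either direction. Med30 itself had an RPKM of 10.6, 13.3 and 11.3 in Ctrl and 1.38, 2.02 and 1.004 in cKO at E10.5. At 4 weeks it was at 7.66, 7.45 and 7.66 in Ctrl and at 3.81, 3.16 and 1.83 in icKO. Med30 was called lower at both stages, by a log2 fold change of -2.96 at E10.5 (adjusted p = 0.000367 by limma) and of -1.40 at 4 weeks (adjusted p = 0.000403). These values cover the whole gene, including exons outside the floxed one.

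A shift of the whole table bears on every adult value. At 4 weeks the median gene tested stood at a log2 fold change of 0.57 as deposited and of 0.04 after median-ratio scaling, which sets the typical gene to no change. The 20 most abundant genes took 24.2% to 24.8% of the summed RPKM in Ctrl and 10.7% to 12.2% in icKO. At E10.5 the corresponding medians were -0.13 and -0.01. With median-ratio scaling the 4-week calls over all genes were 1476 lower and 1106 higher, against 804 and 2668 as deposited. Changes below are therefore given as deposited and, where it matters, relative to these medians or under the other scalings.

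**Figure D1:**
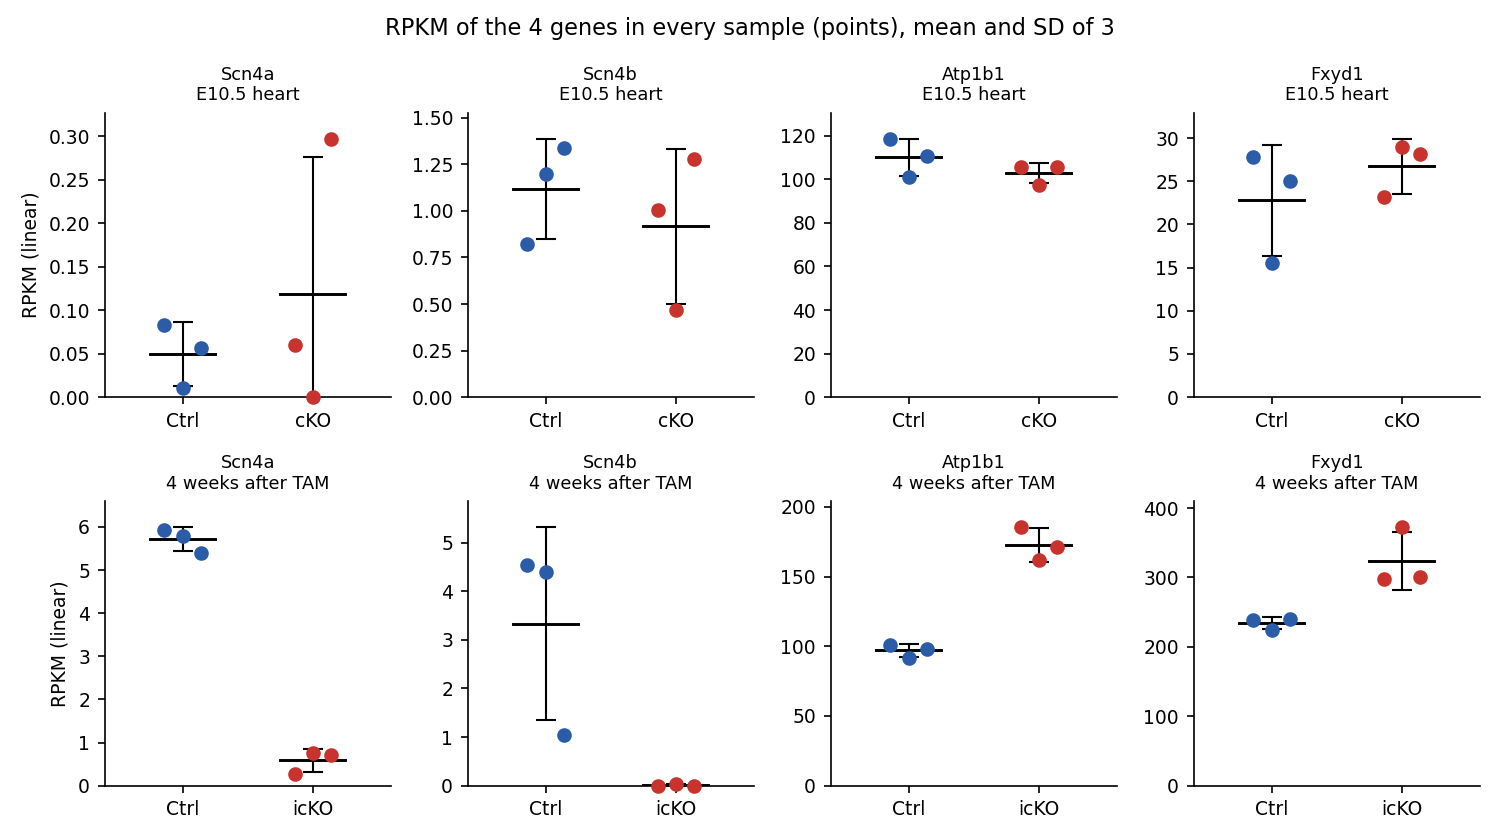
RPKM (y axis, linear, starting at 0) of Scn4a, Scn4b, Atp1b1 and Fxyd1 in every Ctrl (blue) and knockout (red) sample, with E10.5 above and 4 weeks after TAM below; the bar and whiskers give the mean and SD of 3 samples, with whiskers ending at 0 where they would pass below it. The groups overlap in all E10.5 panels and in no 4-week panel, and 4-week Ctrl replicate 3 stands apart for Scn4b at 1.05.

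At E10.5, none of the 3 genes that could be tested passed the test between cKO and Ctrl, and the fourth, Scn4a, was scarcely detected. Of all genes tested, 0.542% were called lower and 0.239% higher, and 29.1% had groups that did not overlap. An unadjusted p under 0.05 was found by limma for 2566 of the 10885 genes. Among the 4 genes, 0 were called, 0 had an unadjusted p under 0.05 and 0 had groups that did not overlap.

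Scn4a was at 0.083, 0.010 and 0.056 RPKM in E10.5 Ctrl and at 0.060, 0 and 0.297 in cKO. The highest of these values corresponds to about 26.9 reads and the others to between 0 and 11 reads, so no fold change is given. In cKO replicate 2, a count of 0 allows up to 0.0258 RPKM, taken at 3 reads. Scn4b was at 0.820, 1.20 and 1.34 RPKM in Ctrl and at 1.004, 0.466 and 1.28 in cKO. Its groups overlapped, and its log2 fold change was -0.33 ± 0.395 (SE, n = 3 per group; limma, adjusted p = 0.648; 95% interval -1.21 to 0.55). Without cKO replicate 2 that value was 0.04.

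Atp1b1, in contrast, was an abundant transcript of the embryonic heart, at 118, 101 and 111 RPKM in Ctrl and 106, 97.6 and 106 in cKO. The groups overlapped, and the log2 fold change was -0.09 ± 0.121 (SE; limma, adjusted p = 0.673; 95% interval -0.37 to 0.18), a sign that turned to 0.03, 0.19 and 0.08 under median-ratio scaling, quantile normalization and scaling without the 20 most abundant genes. Fxyd1 was at 27.8, 15.5 and 25.04 RPKM in Ctrl and at 23.1, 29.0 and 28.2 in cKO. Ctrl replicate 2 was the lowest of these, and the log2 fold change of Fxyd1 was 0.27 ± 0.202 (SE; limma, adjusted p = 0.451; 95% interval -0.19 to 0.72). Without that replicate it was 0.01.

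At 4 weeks, the transcripts of the sodium channel subunits Scn4a and Scn4b fell steeply, while those of the pump subunits Atp1b1 and Fxyd1 stood higher in icKO as deposited. Of the 4 genes tested, 2 were called, both lower, where 8.45% of all genes were called lower and 28.0% higher. The other two had an adjusted p under 0.05 at less than 2-fold higher, where 60.6% of all genes were higher at that threshold and 18.1% lower. All 4 had groups that did not overlap, as did 80.8% of all genes. Scn4a and Scn4b had mean RPKM under 1 in icKO and passed the filter on low values through Ctrl alone, so among genes of that kind a difference was built in. In such bulk samples, fewer cells of a type and less RNA per cell cannot be told apart. The summed cardiomyocyte markers were also lower, at 7882 to 10450 RPKM in icKO against 23390 to 24800 in Ctrl. Of these 8 genes, 6 were lower and 1, Nkx2-5, was higher at an adjusted p under 0.05 (limma). The part of these markers in the results was not tested.

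Scn4a was at 5.94, 5.80 and 5.40 RPKM in 4-week Ctrl and at 0.278, 0.769 and 0.721 in icKO. Every icKO sample was below 1 and every Ctrl sample above 5. The mean went from 5.71 ± 0.280 to 0.589 ± 0.271 (SD, n = 3 each), and the log2 fold change was -3.17 ± 0.297 (SE; limma, adjusted p = 1.25e-05), the 94th lowest of 9517 genes. Pooled over the samples, about 173 reads in icKO stood against 1792 in Ctrl, a ratio of 10.1% after depth (95% exact interval 8.59% to 11.8%, counting error only).

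Scn4b was at 4.55, 4.41 and 1.05 RPKM in 4-week Ctrl and at 0, 0.028 and 0 in icKO. Ctrl replicate 3 was far below the other Ctrl samples and still above every icKO sample. About 2 reads remained in all icKO samples together against 773 in Ctrl, a ratio of 0.271% after depth (95% exact interval 0.0327% to 0.981%, counting error only). In icKO replicates 1 and 3, a count of 0 allows an RPKM of up to 0.0357 and 0.0503, taken at 3 reads. The fitted log2 fold change of -4.73 ± 0.540 (SE; limma, adjusted p = 4.22e-05) was the 7th lowest of 9517, and the pseudocount sets its size: adding 1 RPKM in place of 0.1 gave -1.97, and adding 0.01 gave -7.47. Without Ctrl replicate 3 it was -5.40.

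Atp1b1 was at 101, 91.7 and 98.3 RPKM in 4-week Ctrl and at 185, 162 and 171 in icKO. Its mean went from 97.0 ± 4.79 to 173 ± 11.9 (SD, n = 3 each), or 1.78-fold. The log2 fold change was 0.83 ± 0.080 (SE; limma, adjusted p = 1.41e-05). Relative to the median of all genes the difference was 0.26, and after median-ratio scaling it was 0.29 (adjusted p = 0.00976), so the direction was kept at a smaller size.

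Fxyd1 was at 239, 224 and 240 RPKM in 4-week Ctrl and at 298, 372 and 301 in icKO. It was the most abundant of the 4 genes in adult cells, with means of 234 ± 8.87 and 324 ± 41.9 (SD, n = 3 each). The log2 fold change was 0.46 ± 0.097 (SE; limma, adjusted p = 0.00194) as deposited, but -0.08 (adjusted p = 0.506) after median-ratio scaling, so that a direction for Fxyd1 rests on the scaling. Relative to the median of all genes it stood at -0.11.

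**Figure D2:**
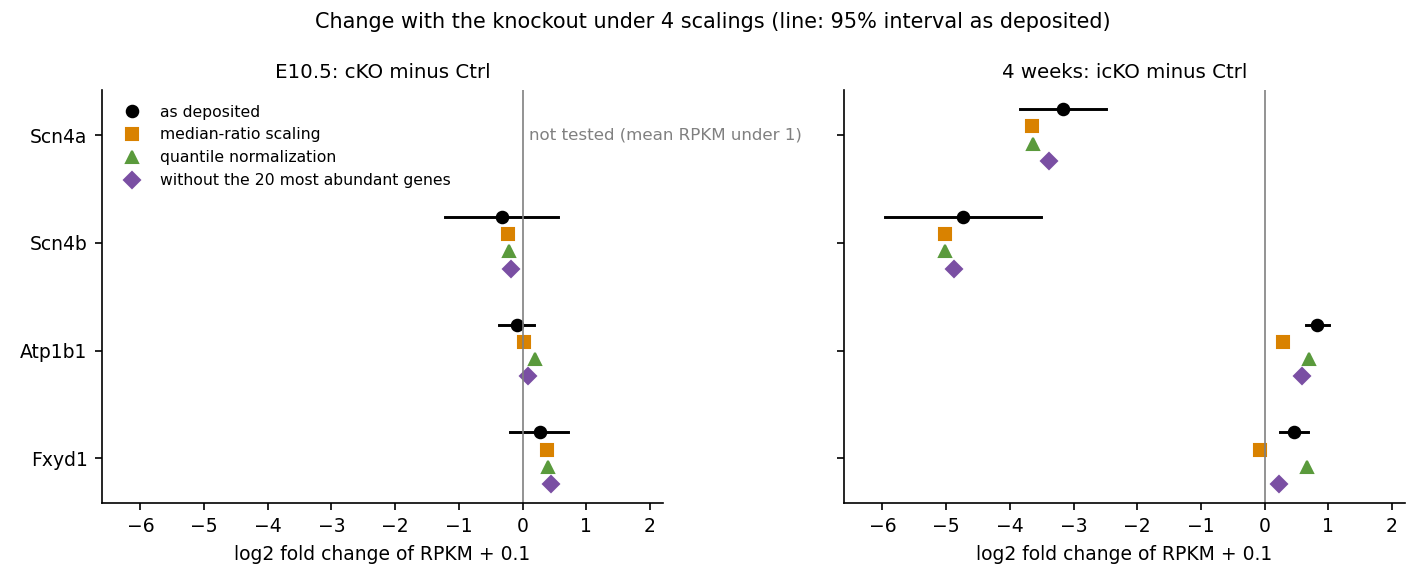
Log2 fold change of RPKM + 0.1 (x axis), knockout minus Ctrl, for the 4 genes at E10.5 (left) and 4 weeks (right); markers give 4 scalings, and the line is the 95% interval of the fit on deposited values. At 4 weeks Scn4a and Scn4b lie below -3 under all 4 scalings, Atp1b1 lies between 0.29 and 0.83, and Fxyd1 crosses 0 with median-ratio scaling (-0.08).

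The order of the levels per length differed between the stages. In E10.5 Ctrl, Atp1b1 (mean 110 RPKM) was above Fxyd1 (22.8), Scn4b (1.119) and Scn4a (0.0497), with no overlap between neighbours over the samples. In 4-week Ctrl, Fxyd1 (234 RPKM) was above Atp1b1 (97.0), Scn4a (5.71) and Scn4b (3.34), again without overlap. Both tables were normalized separately and come from different material, so these levels were not tested against each other. In icKO the order at 4 weeks was the same as in Ctrl, with means of 324, 173, 0.589 and 0.00933 RPKM.

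Whether the effect of the knockout differed between the stages was tested as a contrast over all 12 samples, in which 68.7% of 8909 genes had an adjusted p under 0.05 and the median difference was 0.69. For Scn4b, the effect at 4 weeks was lower than that at E10.5 by a log2 difference of -4.40 ± 0.706 (SE; limma, adjusted p = 0.000103). The pseudocount sets the size of this difference too, which was -1.81 with 1 RPKM added and -7.10 with 0.01. At 4 weeks Scn4b passed the filter through Ctrl alone, so a lower effect there was built in. At E10.5 its means of 1.119 RPKM in Ctrl and 0.917 in cKO lay close to the filter. The Atp1b1 effect was higher by 0.92 ± 0.136 (adjusted p = 5.3e-05), and by 0.26 after median-ratio scaling (adjusted p = 0.0495). For Fxyd1 the difference was 0.20 ± 0.254 (adjusted p = 0.505; 95% interval -0.35 to 0.74), and it turned to -0.46 and -0.22 under median-ratio scaling and without the 20 most abundant genes. Scn4a was below the filter at E10.5 and its contrast was not fitted in the main analysis.

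The other genes of these families show what surrounded the 4 transcripts. Of the 9 channel alpha subunit genes counted here, the 8 other than Scn4a stayed under 1 RPKM in every sample of the 4-week table and were not tested. Scn7a, a gene related to the channels, had 0.945 to 1.302 RPKM in E10.5 Ctrl and 0.286 to 0.753 in cKO, and at 4 weeks 0.103 to 0.257 in Ctrl and 0.399 to 0.546 in icKO. It was below the filter at both stages and was not tested. Scn2b, the genomic neighbour of Scn4b that also encodes a beta subunit, was at 0 to 0.064 RPKM in 4-week Ctrl and 0 to 0.013 in icKO. Scn3b, of the same family, was at 0.027 to 0.055 RPKM in 4-week Ctrl and 0.043 to 0.115 in icKO, and neither was tested.

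Of 3 beta subunit genes tested at 4 weeks, Atp1b3 alone was called, in the higher direction, where 28.0% of all genes were called higher. It was at 11.5, 10.01 and 9.78 RPKM in Ctrl and at 38.4, 34.1 and 36.3 in icKO (log2 fold change 1.79; limma, adjusted p = 6.31e-07), and its log2 fold change was 1.25 after median-ratio scaling. Shares of summed RPKM within a sample are not moved by a scaling factor applied to that sample. The share of Atp1b1 in the summed beta subunits was 88.8%, 88.1% and 89.0% in Ctrl and 82.0%, 81.6% and 80.9% in icKO, and that of Atp1b3 went from 9.53% ± 0.640 to 17.1% ± 0.109 (SD, n = 3; two-sided exact permutation test, p = 0.1 for each, the smallest that 3 samples against 3 allow). So Atp1b1 stood higher in RPKM as deposited and lower as a share of its family. At E10.5 the Atp1b1 share was 70.8%, 72.8% and 72.7% in Ctrl and 66.7%, 65.9% and 69.3% in cKO, again without overlap (exact permutation test, p = 0.1), while that of Atp1b3 overlapped. The beta subunit gene past an adjusted p of 0.05 there was Atp1b2, named after its values were seen, at 7.33, 6.02 and 9.42 RPKM in Ctrl and 15.3, 13.6 and 15.1 in cKO (log2 fold change 0.96; limma, adjusted p = 0.0217). At that threshold 3.45% of all genes were lower and 0.864% higher. Its share was 4.97% ± 1.06 in Ctrl and 9.56% ± 0.363 in cKO (SD, n = 3; exact permutation test, p = 0.1). Without Ctrl replicate 1 or cKO replicate 1 or 2 its adjusted p was 0.0543 to 0.0645.

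**Figure D3:**
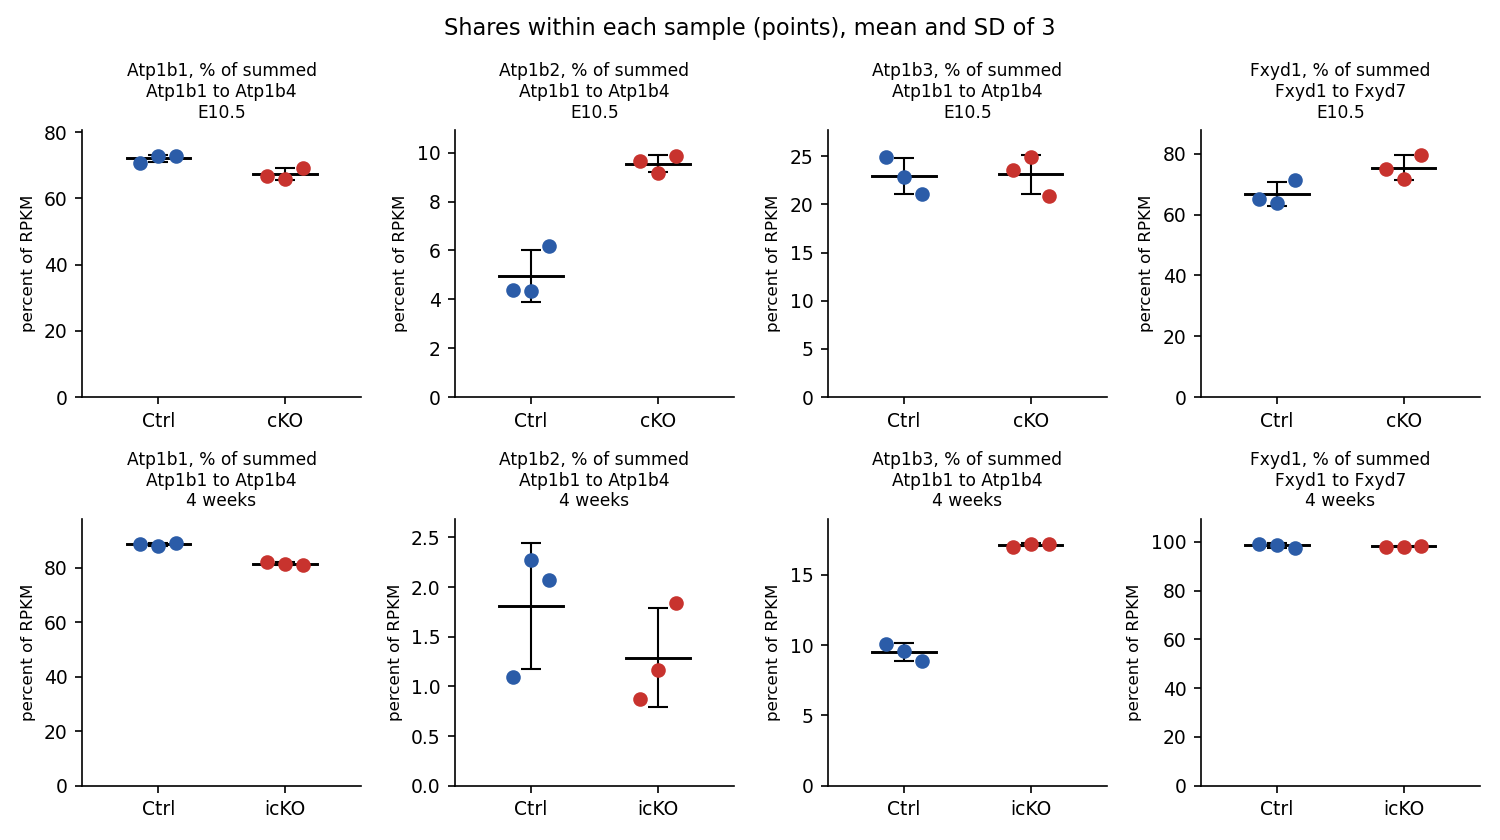
Shares (percent of summed RPKM) of Atp1b1, Atp1b2 and Atp1b3 among the pump beta subunits and of Fxyd1 among the FXYD genes in each sample, Ctrl in blue and knockout in red, at E10.5 (top) and 4 weeks (bottom), with the mean and SD of 3 samples; the y axes start at 0. The Atp1b1 share is lower in the knockout at both stages, beside a higher Atp1b2 share at E10.5 and a higher Atp1b3 share at 4 weeks (17.1% against 9.53%).

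Of the 7 FXYD genes, Fxyd1 made up 98.6% ± 0.900 of the summed RPKM in 4-week Ctrl and 98.2% ± 0.219 in icKO (SD, n = 3), so the family in these adult cells was almost phospholemman alone. At 4 weeks 3 were tested and 2 had an adjusted p under 0.05, both higher, where 60.6% of all genes were higher at that threshold. As deposited 1 of the 3 was called, higher, where 28.0% of all genes were called higher. After median-ratio scaling 1 was called higher and 1 lower. At E10.5 4 were tested by limma, 0 had an adjusted p under 0.05 and 1 an unadjusted p under 0.05, beside 2566 of all 10885 genes. The Fxyd1 share at E10.5 was 65.1%, 63.9% and 71.4% in Ctrl and 74.9%, 71.7% and 79.7% in cKO (exact permutation test, p = 0.1). Fxyd5, which encodes dysadherin, was called higher at 4 weeks, from 0.074, 0.167 and 0.635 RPKM to 4.12, 4.45 and 1.88 (log2 fold change 3.37 ± 0.527, SE; limma, adjusted p = 0.000311), and its log2 fold change at E10.5 was -0.15 (adjusted p = 0.815), or 0.02 without the 20 most abundant genes. It passed the filter through icKO alone. Fibroblast markers moved beside it, from a summed 5.03 to 8.39 RPKM over 8 genes in Ctrl to 60.4 to 87.5 in icKO, with 5 of 5 tested called higher, or 4 after median-ratio scaling, and their part in this result was not tested. Of these, Col1a1, Col1a2, Col3a1 and Postn had mean RPKM under 1 in Ctrl and passed the filter through icKO alone. Fxyd6 was at 2.76 ± 1.74 RPKM in 4-week Ctrl and 1.63 ± 0.266 in icKO (SD, n = 3; log2 fold change -0.57; limma, adjusted p = 0.173). That adjusted p was 0.0252 without Ctrl replicate 1. After median-ratio scaling Fxyd6 was called lower, with a log2 fold change of -1.09 (adjusted p = 0.028).

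Of 11 genes counted here whose products bind or place sodium channels, 8 were tested at each stage. At 4 weeks 2 were called, both lower, and an adjusted p under 0.05 was found for 4 that were lower and 3 that were higher. Of all genes, 8.45% were called lower, and 18.1% were lower and 60.6% higher at that adjusted p. After median-ratio scaling 4 of these partners were called lower, and 5 were lower and 1 higher at an adjusted p under 0.05. The median log2 fold change was -0.37, against 0.57 over all genes. Rangrf, which encodes a protein that helps cardiac sodium channels reach the membrane, was at 20.2, 13.0 and 15.9 RPKM in 4-week Ctrl and at 3.72, 3.51 and 5.47 in icKO (log2 fold change -1.93; limma, adjusted p = 2.27e-05). It was also called lower at E10.5, from 6.66 ± 1.33 to 3.25 ± 0.861 RPKM (SD, n = 3; log2 fold change -1.03; adjusted p = 0.0368). This call was kept without cKO replicate 3 alone, and was lost without any other E10.5 sample (adjusted p = 0.0748 to 0.105) and after median-ratio scaling (0.052). It was also lost with no filter (0.0741), without a trend (0.0735) and without the 20 most abundant genes (0.056). With a pseudocount of 1 (-0.86) and by quantiles (-0.93) the log2 fold change did not reach 2-fold. Ank2, encoding the anchor protein ankyrin B, went from 31.2 ± 1.497 to 11.97 ± 1.97 RPKM at 4 weeks (log2 fold change -1.38; adjusted p = 7.34e-06).

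Fgf13, Gpd1l, Nedd4l and Cav3 are named after their values were seen, to complete those counts. Fgf13 (log2 fold change -0.65) and Gpd1l (-0.87) were lower at 4 weeks, and after median-ratio scaling both passed 2-fold, at -1.18 and -1.41. Nedd4l (0.97) and Cav3 (0.83) were higher as deposited. After that scaling they stood at 0.44 (adjusted p = 0.00446, limma) and 0.29 (adjusted p = 0.0594). Dlg1, encoding a scaffold protein, changed sign, from 0.35 to -0.19. Ank3 was at 12.6 ± 0.557 RPKM in 4-week Ctrl and 11.7 ± 1.33 in icKO (adjusted p = 0.388), and at 19.8 ± 2.38 and 24.7 ± 2.19 at E10.5 (adjusted p = 0.154), and after median-ratio scaling its adjusted p was 0.000717, lower, and 0.0278, higher. At E10.5, Fgf13 was lower beside Rangrf, with a log2 fold change of -0.74 (adjusted p = 0.0386), and without any 1 sample other than cKO replicate 3 its adjusted p was 0.0505 to 0.116.

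Phospholemman is regulated by phosphorylation, and 9 genes of kinases, phosphatases and a phosphatase inhibitor that act on it were counted. At 4 weeks 8 were tested, 2 were called higher and 7 had an adjusted p under 0.05 in that direction, with a median log2 fold change of 0.59 against 0.57 over all genes. These counts stand beside 28.0% of all genes called higher and 60.6% higher at that adjusted p. After median-ratio scaling 0 of the list were called by limma, and 3 were higher and 1 lower at an adjusted p under 0.05 (4 in all with an unadjusted p under 0.05). With that scaling 6749 of all 9517 genes had an unadjusted p under 0.05. Prkacb, a catalytic subunit of protein kinase A, went from 9.96 ± 0.382 to 22.1 ± 0.898 RPKM (SD, n = 3), or 1.14 on the log2 scale (adjusted p = 2.68e-06, limma), which became 0.60 after median-ratio scaling. Prkca, protein kinase C alpha, went from 3.79 ± 0.773 to 9.68 ± 0.986 RPKM (1.34; adjusted p = 3.81e-05; 0.81 rescaled). Prkaca was at 86.0 ± 2.86 RPKM in Ctrl and 93.0 ± 7.19 in icKO, a log2 fold change of 0.11 (adjusted p = 0.228) that turned to -0.43 under that scaling. The phosphatase subunits Ppp1ca and Ppp2ca had log2 fold changes of 0.55 and 0.53 as deposited and of 0.01 and -0.01 rescaled. No gene of this list was called at E10.5, where all 9 were tested by limma, 0 had an adjusted p under 0.05 and 1 had an unadjusted p under 0.05. The latter was found for 2566 of all 10885 genes.

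Of 5 other sodium carriers counted here, all tested, 2 were called higher at 4 weeks and none lower, where 28.0% of all genes were called higher, with a median log2 fold change of 0.02 against 0.57 over all genes. Slc12a2, the sodium, potassium and chloride cotransporter, went from 3.66 ± 0.190 to 9.99 ± 0.569 RPKM (SD, n = 3; log2 fold change 1.43; limma, adjusted p = 2.26e-06). Slc12a4, which carries potassium and chloride and was kept with its family, went from 11.8 ± 1.01 to 31.4 ± 1.56 (1.41; adjusted p = 1.64e-06). After median-ratio scaling both were under 2-fold, at 0.89 and 0.87. With that scaling 2 of the carriers were higher and 3 lower at an adjusted p under 0.05, the latter being Slc8a1 (-0.96) and the bicarbonate cotransporters Slc4a4 (-0.58) and Slc4a7 (-0.50), named after their values were seen. Slc8a1, the sodium and calcium exchanger, was lower at 43.4, 35.9 and 47.8 RPKM in Ctrl against 32.3, 30.4 and 31.4 in icKO (log2 fold change -0.42; adjusted p = 0.00549), and its log2 fold change at E10.5 was -0.48 (adjusted p = 0.0676, and 0.0451 without cKO replicate 3).

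**Figure D4:**
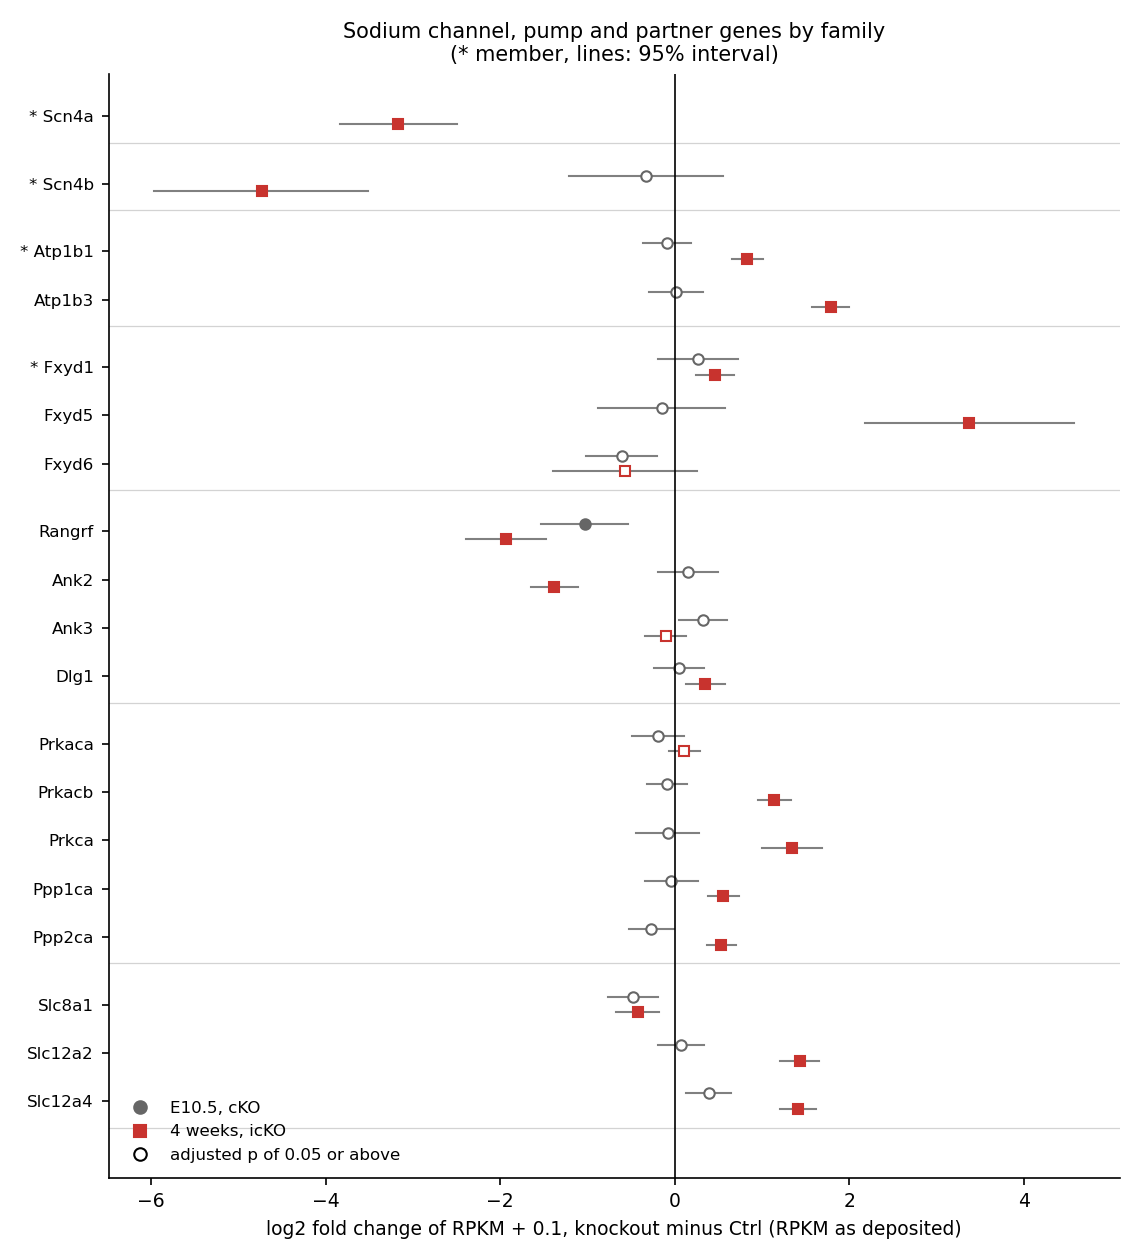
Log2 fold change of RPKM + 0.1 as deposited (x axis), knockout minus Ctrl, for the 4 genes (starred) and the named genes of their families, at E10.5 (gray circles) and 4 weeks (red squares), with 95% intervals; open markers have an adjusted p of 0.05 or above. Scn4a and Scn4b lie below -3 at 4 weeks, of the genes plotted only Rangrf is filled at E10.5 (Atp1b2 and Fgf13, named after their values were seen, are not plotted), and the 4-week values of Fxyd1, Dlg1, Prkaca and Ppp2ca change sign after median-ratio scaling, as do the E10.5 values of Atp1b1, Prkacb, Prkca and Ppp1ca.

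The patterns most like those of the 4 genes were sought over all 12 samples, as the root mean square difference on log2(RPKM + 0.1) after centring each gene, among 11492 genes. Nearest to Scn4a were Arhgap20 (0.448), Dhrs3 (0.481) and Ip6k3 (0.490), where the median gene lay at 2.48. Scn4b had no neighbour as close, with A530016L24Rik at 0.669, Gpr22 at 0.670 and Pfkfb1 at 0.707 (median 2.12). Usp9x (0.0636), Mark2 (0.0762) and Capza2 (0.0810) lay nearest to Atp1b1, with a median of 0.737. For Fxyd1 they were Acyp2 (0.126), Fth1 (0.175) and Sgcd (0.250), with a median of 1.99. These distances carry the difference between the 2 tables as well as the effect of the knockout.

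Markers of the cells were read beside these results. Cardiomyocyte markers dominated every sample, and 5 of the 8 behind the sums given above were called lower at 4 weeks, where 8.45% of all genes were. After median-ratio scaling 6 of these markers were called lower, beside 1476 of all 9517 genes. Nkx2-5, on the same list, went the other way, from 23.5 ± 3.19 to 39.1 ± 2.44 RPKM (SD, n = 3; log2 fold change 0.74; limma, adjusted p = 0.00019). After median-ratio scaling its log2 fold change was 0.20 (adjusted p = 0.122). At E10.5 the sum of the cardiomyocyte markers was 6924 to 10050 in Ctrl and 4788 to 5975 in cKO, with 0 of 8 called by limma and 2 at an unadjusted p under 0.05. Of all 10885 genes tested there, 2566 had an unadjusted p under 0.05. The skeletal muscle genes Myod1, Myog and Pax7 were at 0 to 0.041 RPKM in all adult samples, while Acta1, which the heart also expresses, was at 57.7 to 253 in Ctrl and 171 to 421 in icKO. Tnnt3, of the same list, was called higher in icKO, at 6.45 to 9.33 RPKM against 0.059 to 0.234, and passed the filter through icKO alone. Neuron and Schwann cell markers summed to at most 0.588 RPKM over 8 genes in the adult samples. Endothelial markers summed to 8.90 to 24.9 RPKM over 6 genes in 4-week Ctrl, highest in replicate 3, the sample with the low Scn4b value, and to 23.6 to 43.1 in icKO. Macrophage, erythroid, and mural and smooth muscle markers summed to 2.41 to 3.96, 1.04 to 21.1 and 47.0 to 72.3 RPKM in 4-week Ctrl and to 5.07 to 7.86, 7.59 to 25.8 and 51.7 to 80.1 in icKO. The mural sum was mostly Acta2, at means of 48.1 RPKM in Ctrl and 35.8 in icKO (limma, adjusted p = 0.16). Of 5 mural markers tested, 3 were called higher (Cspg4, Tagln and Pdgfrb), or 2 after median-ratio scaling, where 28.0% of all genes were called higher as deposited. Pdgfrb had a mean RPKM of 0.963 in Ctrl and passed the filter through icKO alone. At E10.5 macrophage markers, mostly Lyz2, summed to 8.51 to 11.2 RPKM in Ctrl and 4.93 to 6.82 in cKO, the skeletal muscle list, mostly Acta1, to 119.5 to 120.7 and 264.0 to 343.4, and mural and smooth muscle markers to 455 to 552 and 567 to 718. Within the skeletal muscle list the genes went both ways at E10.5. Acta1 was called higher (log2 fold change 1.32, adjusted p = 0.00409, limma). Tnnt3 was called lower, from a mean of 3.57 to 1.29 RPKM (-1.44, adjusted p = 0.0374, limma). Of all genes, 0.239% were called higher and 0.542% lower. Myog, not tested, was at 0.101 to 0.170 RPKM in Ctrl and at 0 in cKO. Lyz2 was at means of 7.72 RPKM in E10.5 Ctrl and 3.77 in cKO. Of the other macrophage markers, Cd68 was at 1.67 and 1.57 and Csf1r at 0.405 and 0.411, both with overlapping groups. The summed fibroblast, endothelial, erythroid and neuronal lists overlapped between the groups there. The part of these markers in the results above was not tested.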

How the data were processed

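RNA-seq reads of 12 samples were processed by the authors, who deposited 1 table of RPKM per stage for 20775 genes. The submitters' processing notes name cutadapt 2.6, STAR 2.5.3a, HOMER 4.11.1 and DESeq2 1.12.4 with mm10, and the gene annotation is not given in the sources used here. The tables also hold the authors' mean RPKM, log2 fold change and FDR per gene, which were not used. Ribosomal RNA was depleted and total RNA was sequenced, per the labels.

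Groups were taken from the sample labels. The E10.5 table heads its knockout columns icKO, where the labels give MED30-cKO. Since the values are RPKM, no count test was run. Each stage was fitted with limma 3.58.1 in R 4.3.3 (lmFit, eBayes with trend) on log2(RPKM + 0.1). A gene entered when its RPKM averaged more than 1 over the 6 samples, with Benjamini-Hochberg adjustment over all genes tested. A fold change on this scale understates that of low genes. The stage contrast used genes above that mean in both tables. Reads per sample were estimated from the spacing of low RPKM and GENCODE gene lengths: 63.0% to 71.7% of low values lay within 0.1 of a whole read, against 20% from spacing alone. This is too few to recover counts, and intervals from these reads cover counting error only. The fits were tested on simulated data.

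The 4 genes and all gene lists were chosen with earlier results of these data known. Named genes are the 4 genes, Med30, list genes called at either stage, and the 2 most abundant in Ctrl per list and table; likeness names the 3 nearest genes. Some genes of the lists are not reported here, and the lists are counted without them. Replicate numbers were not used for pairing, and the closing section gives that check. Alternatives were other pseudocounts, filters and scalings, no trend, a replicate block and the omission of each sample. The omission of samples for within-sample shares was added after seeing the data. Promoters were read from RefSeq and genes from GENCODE (both GRCm38). Tables were handled with Python 3.11.15, pandas 2.3.3, numpy 2.4.6, scipy 1.17.1 and matplotlib 3.10.9.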

Additional observations from a re-analysis of the deposited data

Results flagged for a closer look

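The effect of the knockout differed between E10.5 and 4 weeks for 16 of the genes named above, by the contrast over all 12 samples (limma, adjusted p under 0.05), as it did for 68.7% of all genes tested. Differences are given as the log2 effect at 4 weeks minus that at E10.5, against a median of 0.69 over all genes. Among the 4 genes described, it was -4.40 for Scn4b and 0.92 for Atp1b1. Scn4b passed the filter at 4 weeks through Ctrl alone, so a lower effect there was built in. For Med30 the difference was 1.56, and 0.91 after median-ratio scaling (limma, adjusted p = 0.0533).

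Lower effects at 4 weeks were found for Ank2 (-1.54), Rangrf (-0.90) and Ank3 (-0.42). Of the pump subunits and FXYD genes, Fxyd5 (3.53) and Atp1b3 (1.78) had higher effects, where Fxyd5 passed the filter at 4 weeks through icKO alone. Partners and regulators with higher effects were Prkca (1.42), Prkacb (1.23), Cav3 (1.07), Nedd4l (0.90), Ppp2ca (0.80) and Ppp1ca (0.59). The carriers were Slc12a2 (1.35) and Slc12a4 (1.02). After median-ratio scaling the differences of Ppp1ca (-0.07), Ppp2ca (0.14), Nedd4l (0.25) and Cav3 (0.41) had adjusted p values of 0.617, 0.306, 0.222 and 0.149. The same scaling brought Atp1b2 (-1.15), Fgf13 (-0.56), Gpd1l (-1.03), Slc8a1 (-0.60), Slc4a4 (-0.84) and Prkaca (-0.36) under an adjusted p of 0.05, with adjusted p values of 0.0213, 0.0157, 0.000678, 0.00315, 0.00467 and 0.0365. Age, cell material, Cre driver and tamoxifen differed between the stages together with the time of deletion, and these cannot be told apart.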

How the results depend on the processing

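At 4 weeks Scn4a and Scn4b were lower with an adjusted p under 0.05 in every fit that tested them, with log2 fold changes of -3.65 to -2.09 and -7.47 to -1.97 over the alternatives. With a mean RPKM above 5 neither was tested and 0 of the 4 genes were called at 4 weeks. Atp1b1 kept its direction and an adjusted p under 0.05 at 0.29 to 0.83. Without each sample in turn, the values at 4 weeks ranged from -3.38 to -2.78 for Scn4a, -5.40 to -4.39 for Scn4b, 0.78 to 0.88 for Atp1b1 and 0.36 to 0.52 for Fxyd1. Omitting a sample gave -0.52 to 0.04 for Scn4b at E10.5, where the sign turned without cKO replicate 2 and the gene fell under the filter without Ctrl replicate 2, Ctrl replicate 3 or cKO replicate 3. The stage difference of Fxyd1 ranged from 0.03 to 0.45, with adjusted p = 0.032 (limma) without E10.5 Ctrl replicate 2. With no filter, Scn4a had a log2 fold change of 0.34 at E10.5 (limma, adjusted p = 0.76) and a stage difference of -3.51 (adjusted p = 0.000657).

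Signs turned for Atp1b1 at E10.5 (0.03, 0.19 and 0.08 under median-ratio scaling, quantile normalization and without the 20 most abundant genes), Fxyd1 at 4 weeks (-0.08, median-ratio) and the Fxyd1 stage difference (-0.46 median-ratio, -0.22 without the 20 genes). At 4 weeks median-ratio scaling also turned Atp1b2 (-0.08), Dlg1 (-0.19; -0.17 by quantiles), Ppp2ca (-0.01) and Prkaca (-0.43; -0.27 by quantiles; -0.13 without the 20 genes). At E10.5 the same 3 scalings gave Prkacb 0.03, 0.04 and 0.08, Prkca 0.04, 0.04 and 0.09, and Ppp1ca 0.08, 0.25 and 0.14, and Fxyd5 was 0.02 without the 20 genes. Omitting a sample at E10.5 ranged Atp1b3 from -0.05 to 0.14, Fxyd5 from -0.50 to 0.19, Dlg1 from -0.08 to 0.13, Prkca from -0.17 to 0.00, Ppp1ca from -0.11 to 0.04 and Nedd4l from -0.09 to 0.22. The causes were not tested.

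Over all genes at E10.5, 59 called lower and 26 higher became 36 and 12 with a pseudocount of 1, 35 and 17 with no filter, 34 and 9 with a mean RPKM above 5, 39 and 35 by quantiles, 36 and 48 without the 20 genes, and 38 and 19 without a trend. At 4 weeks, 804 and 2668 became 454 and 1687 with a mean RPKM above 5, 1476 and 1106 by median ratios, and 1336 and 1206 by quantiles. Omitting a sample gave 18 to 100 lower and 9 to 36 higher at E10.5: 24 and 16 without Ctrl replicate 1, 53 and 16 without Ctrl replicate 2, 18 and 11 without Ctrl replicate 3, 39 and 15 without cKO replicate 1, 32 and 9 without cKO replicate 2, and 100 and 36 without cKO replicate 3. It gave 760 to 829 and 2493 to 2795 at 4 weeks.

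Whether the replicate numbers pair the samples could not be decided, since deviations from means of 3 samples cannot exclude it. Deviations of same-numbered samples correlated at 0.012, 0.101 and -0.070 at E10.5 and at 0.153, 0.043 and 0.045 at 4 weeks. Some samples, but not every one, were nearest to their own number. With a replicate block, 61 genes were called lower and 32 higher at E10.5 and 805 and 2672 at 4 weeks, 0 and 2 of the 4 genes among them. Among the 4 genes, the family genes plotted above and Atp1b2, Fgf13, Gpd1l, Nedd4l and Cav3, the block moved none across an adjusted p of 0.05, with limma adjusted p values of 3.58e-05, 7.48e-05, 6.21e-05 and 0.0057 for Scn4a, Scn4b, Atp1b1 and Fxyd1 at 4 weeks. At 3 samples per group and these depths, Scn4a at E10.5 and Scn4b in icKO lay near the limit of a few reads.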
